A study of Mus musculus with 19 samples.

Results

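Genes of the ATF4 amino acid response, including a set of cytosolic aminoacyl-tRNA synthetases, were followed in the left ventricle of mice through a transient cardiomyopathy. The list held 38 gene symbols, and every array probe that the platform annotation gave to 1 of these symbols or to an alias was taken. The rule uses symbols alone, but the list of symbols was drawn up with earlier results of these arrays known. Of the 38 members, 35 had a probe on the array, out of 16593 genes with a probe. The filter on dim probes was passed by 31 members, and these were tested. Mthfd1l, Pycr1 and Gdf15 had no probe, and Psph, Slc7a11, Cars and Yars lay under the filter, with levels between 5.68 and 6.74 on the log2 scale on all arrays. The filter used the mean over all arrays, so a dim gene that passed it through a high level in 1 group had to differ, and counts over the 31 are not counts over all 38.

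ATF4 is a transcription factor whose messenger RNA is translated more when the initiation factor eIF2 is phosphorylated, a state reached when cells lack amino acids, accumulate unfolded proteins or suffer mitochondrial stress. It binds composite C/EBP-ATF elements and induces genes that make, import and activate amino acids, among them asparagine synthetase, the serine synthesis enzymes, amino acid transporters and the enzymes that charge tRNA. In heart muscle this program is known from mitochondrial cardiomyopathies, in which serine and one-carbon enzymes and secreted factors such as FGF21 rise.

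The mice were male, 12 to 20 weeks old, and carried the MerCreMer transgene, a Cre recombinase held between mutated estrogen receptor domains and driven by a cardiac myosin heavy chain promoter, on a C57Bl6/J background. The 5 controls were non-failing hearts taken at baseline. Treated mice were injected into the peritoneum with 1 mg of tamoxifen (40 mg/kg), given daily as the free base dissolved in peanut oil, and were sampled at day 2 (4 arrays) and day 3 (3 arrays) of the injections, at day 10 (5 days of tamoxifen and 5 days after it, 3 arrays) and at day 28 (5 days of tamoxifen and 23 days after it, 4 arrays). By the series' own design, heart function is worst at day 10 and has recovered by 4 weeks, so the comparisons ask how the genes moved as the heart failed and whether they had returned. There was no group given vehicle and none without Cre, so effects of tamoxifen, of Cre and of time cannot be told apart. RNA came from whole ventricular tissue, and in such bulk RNA fewer cells of a type and less RNA per cell cannot be told apart.

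Levels are log2 of the background-corrected intensity plus 50, a scale on which the median probe of the table lies at 6.83 and the brightest at 15.82, and which understates the fold change of dim genes. A gene was read from its brightest probe and called changed at an adjusted p under 0.05 in limma, with Benjamini-Hochberg adjustment over all 19273 probes tested. The arrays bore out heart muscle as the tissue, but could not show the chamber: 11 cardiomyocyte markers averaged 13.76 to 14.24 in the controls. The arrays of a group were not all alike. Along the first principal components, controls 4 and 5 lay apart from controls 1 to 3 and beside the day 28 arrays (component 2 at 20.55 and 20.08, against 1.59 to 4.38), and day 3 replicate 2 lay apart from the other two day 3 arrays (component 1 at 40.23, against 4.24 and 16.56). Both values are given for some of the results that change without these arrays, but not for all. The labels do not say whether the arrays of a group came from separate animals, so the p-values measure the spread between arrays, which may be technical in part.

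Promoter sequences are shown for 6 members whose window held a match to a composite C/EBP-ATF element. This element is the letter pattern by which ATF4 targets are usually recognised. The members shown include some that moved most, but Psat1, Atf4, Atf5, Mthfd2 and Cebpb had windows without a match. The pattern searched was TGATGNAA, or TTNCATCA on the other strand, in windows of 250 bases before to 50 bases after each transcription start in RefSeq (GRCm38.p6). Of the members, 32 had a window, and 13 of them (40.6%) held a match, against 4.51% of 27025 mouse genes. With the shorter pattern TGATGNA the shares were 53.1% and 13.8%. Because the members were listed as genes of the ATF4 response, these shares are no independent evidence. Slc7a5, Eif4ebp1, Cars, Lars, Nars and Wars had no window. The 250 bases before the start follow, 5′ to 3′ on the gene's strand, with the match in capitals.
Aars, chr8:111033592-111033841, plus strand: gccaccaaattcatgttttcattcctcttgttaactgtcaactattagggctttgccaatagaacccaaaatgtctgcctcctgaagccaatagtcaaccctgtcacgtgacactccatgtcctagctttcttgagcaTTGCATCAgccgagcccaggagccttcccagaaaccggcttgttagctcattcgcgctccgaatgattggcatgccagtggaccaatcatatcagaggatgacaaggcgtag
Chac1, chr2:119350992-119351241, plus strand: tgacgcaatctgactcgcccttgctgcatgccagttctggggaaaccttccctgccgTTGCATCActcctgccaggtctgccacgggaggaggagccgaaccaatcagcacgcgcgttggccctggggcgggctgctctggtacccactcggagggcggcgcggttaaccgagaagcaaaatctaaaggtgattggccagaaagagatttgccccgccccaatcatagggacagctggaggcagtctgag
Asns, chr6:7693210-7693459, minus strand: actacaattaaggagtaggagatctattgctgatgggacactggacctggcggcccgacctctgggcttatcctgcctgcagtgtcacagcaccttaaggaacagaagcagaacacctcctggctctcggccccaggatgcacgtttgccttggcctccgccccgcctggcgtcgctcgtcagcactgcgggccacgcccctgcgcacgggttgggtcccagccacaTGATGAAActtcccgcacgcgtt
Nupr1, chr7:126625471-126625720, minus strand: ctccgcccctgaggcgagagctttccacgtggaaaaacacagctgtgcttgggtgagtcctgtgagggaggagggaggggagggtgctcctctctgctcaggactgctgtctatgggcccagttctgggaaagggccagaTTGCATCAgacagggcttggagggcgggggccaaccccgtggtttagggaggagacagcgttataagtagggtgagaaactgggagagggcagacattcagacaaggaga
Gars, chr6:55037751-55038000, plus strand: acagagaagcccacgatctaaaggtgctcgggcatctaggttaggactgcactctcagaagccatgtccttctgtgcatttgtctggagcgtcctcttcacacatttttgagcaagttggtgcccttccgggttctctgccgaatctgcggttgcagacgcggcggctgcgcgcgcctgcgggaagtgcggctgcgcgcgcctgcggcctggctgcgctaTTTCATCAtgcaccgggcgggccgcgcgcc
Vldlr, chr19:27216770-27217019, plus strand: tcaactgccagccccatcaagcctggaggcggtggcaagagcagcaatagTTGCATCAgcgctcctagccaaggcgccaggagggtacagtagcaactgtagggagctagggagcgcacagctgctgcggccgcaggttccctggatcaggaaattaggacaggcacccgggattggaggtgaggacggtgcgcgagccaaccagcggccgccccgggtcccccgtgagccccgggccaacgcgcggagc

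The match began 112 bases before the start in Aars, which held another just after it, 193 in Chac1, 23 in Asns, 110 in Nupr1 and 30 in Gars. In Vldlr it lay 200 bases before the second of 2 annotated starts. Pycr1, Slc7a11, Fgf21 and Tars also held a match before the start, and Trib3, Iars and Yars held one in the first 50 bases after it. Of 10 tested members with a match, 7 were called at day 3 or day 10, and of 16 tested members whose window held none, 12 were. In either direction, 49.8% of all 12939 genes were called at day 3 or day 10. The match is a description of letters and shows neither a bound site nor a cause.

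Across the members as a whole, calls were few at day 2, mostly upward at day 3, in both directions at day 10 and absent at day 28. At day 2, 3 of 31 members were higher than control and 0 lower, where 3.93% and 3.11% of 12939 genes were called. At day 3, 14 were higher and 2 lower, against 15.1% and 14.8% of all genes. At day 10 the members called numbered 11 higher and 6 lower, and the shares of all genes were 18.2% and 19.2%. None was called at day 28 (limma, adjusted over all probes), where 1.33% and 0.757% of genes were. An unadjusted limma p under 0.05 was found for 5 of the 31 members and for 2172 of 12939 genes, a similar share. Under the alternative settings the day 28 count ran from 0 to 5. The median log2 change of the 31 members was 0.12, 0.26, 0.18 and 0.02 at the 4 times, beside 0.01, -0.02, -0.04 and 0.00 over all genes.

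**Figure D1:**
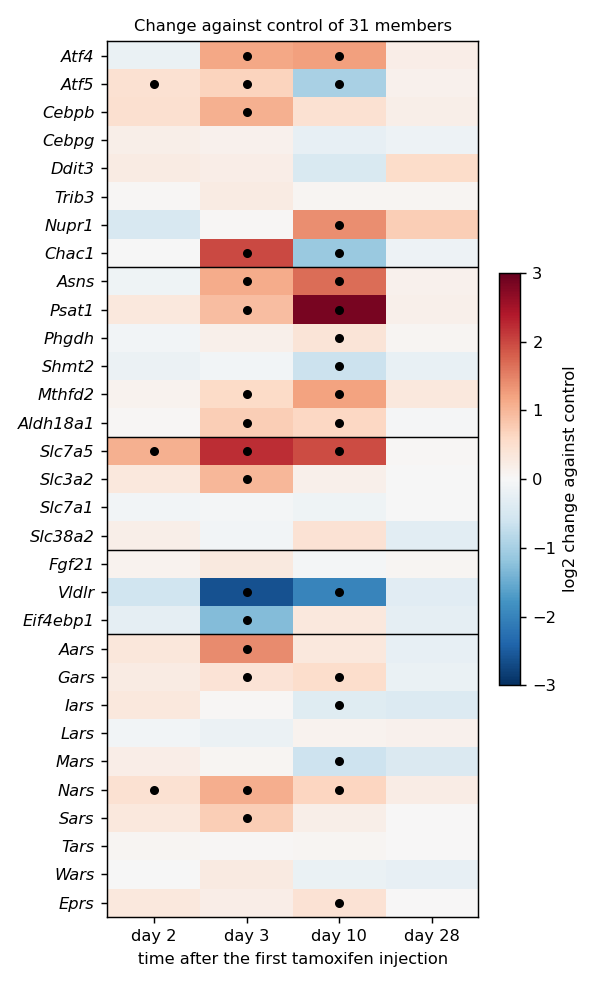
Log2 change against control of the 31 members tested, in rows ordered as regulators, amino acid and one-carbon enzymes, transporters, other targets and tRNA synthetases, with the 4 times in columns. Black dots mark adjusted p under 0.05 (limma): 3 at day 2, 16 at day 3, 17 at day 10 and 0 at day 28.

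Between consecutive times, 11 members rose and 2 fell from day 2 to day 3, against 9.3% and 10.7% of all genes. From day 3 to day 10, 5 rose and 10 fell (16.3% and 16.6% of all genes), and from day 10 to day 28, 5 rose and 12 fell (16.2% and 15.3% of all genes). Day 3 replicate 2 carried part of the step from day 2 to day 3: without it the 13 calls became 7. These comparisons share arrays with those against control, and their counts are not independent of them.

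Atf4, the factor that gives the program its name, stood at 9.94, 9.97, 10.33, 10.57 and 9.71 in the controls, 9.38, 9.80, 10.10 and 10.30 at day 2, 11.04, 11.56 and 11.16 at day 3, 11.61, 11.30 and 11.12 at day 10 and 10.15, 10.42, 10.48 and 10.20 at day 28. All arrays of days 3 and 10 lay above all 5 controls, while the day 2 and day 28 arrays overlapped them. Atf4 rose 2.22-fold at day 3 (log2 change 1.15 ± 0.20 SE, adjusted p = 6.87e-05) and 2.36-fold at day 10 (1.24 ± 0.20 SE, adjusted p = 1.63e-05), and fell by 1.03 ± 0.20 SE from day 10 to day 28 (adjusted p = 0.000351). The change from day 2 to day 3 alone was 1.36 ± 0.20 SE, and 150 of 12939 genes rose more in that step.

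Atf5 is a close relative of ATF4 that is also translated under stress and guards mitochondria. Both genes were called higher at day 3. At day 2 Atf5 was called higher, while Atf4 was at -0.21 and not called. At day 10 Atf5 was called lower and Atf4 higher. The levels of Atf5 were 10.54, 10.65, 10.45, 10.48 and 10.47 in the controls, 11.02, 10.86, 11.36 and 10.66 at day 2, 11.17, 10.98 and 11.39 at day 3, 9.26, 9.77 and 9.62 at day 10 and 10.58, 10.75, 10.47 and 10.79 at day 28. The day 2 and day 3 arrays lay above every control and the day 10 arrays below every control. Atf5 was higher by 0.46 ± 0.14 SE at day 2 (adjusted p = 0.0414) and by 0.66 ± 0.15 SE at day 3 (adjusted p = 0.00133), and at day 10 it was lower, at -0.97 ± 0.15 SE (adjusted p = 1.11e-05). The fall from day 3 to day 10 was -1.63 ± 0.17 SE (adjusted p = 7.31e-08), more than in all but 219 genes. The day 2 call was fragile: it was lost without day 2 replicate 1, 2 or 3 or without control 1, 3, 4 or 5, with adjusted p from 0.0519 to 0.187, and it was made in 7 of 20 alternatives in all.

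Cebpb, whose protein C/EBPβ pairs with ATF4 on composite elements, had levels of 12.49, 12.19, 12.43, 12.11 and 11.65 in the controls, 12.67, 12.51, 12.97 and 12.44 at day 2, 12.96, 13.41 and 13.38 at day 3, 12.84, 12.76 and 12.28 at day 10 and 12.00, 12.13, 12.36 and 12.88 at day 28. The day 3 arrays all exceeded the controls, and at day 10 2 of 3 did. It rose by 1.08 ± 0.20 SE at day 3 (adjusted p = 0.000188) and then stood -0.62 ± 0.22 SE lower at day 10 than at day 3 (adjusted p = 0.0354). That later fall was not called without day 3 replicate 2 (-0.54, adjusted p = 0.108), day 3 replicate 3 (-0.56, adjusted p = 0.116) or day 10 replicate 3 (-0.45, adjusted p = 0.186). Cebpg, a partner of the same family, did not pass the test at any time, with changes against control from -0.25 to 0.19 and a control mean of 6.83, close to the median probe.

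Chac1, which degrades glutathione and is a classic ATF4 target, had the widest swing of any member. It read 8.78, 8.77, 9.61, 9.76 and 9.03 in the controls, 9.51, 8.82, 9.97 and 8.43 at day 2, 10.73, 11.59 and 11.16 at day 3, 8.15, 8.24 and 7.82 at day 10 and 8.55, 8.70, 9.15 and 9.72 at day 28. Day 3 and day 10 lay on opposite sides of the controls without overlap, and the day 2 arrays spread wider than the controls. Chac1 rose 3.92-fold at day 3 (1.97 ± 0.30 SE, adjusted p = 1.8e-05) and lay 2.17-fold below control at day 10 (-1.12 ± 0.30 SE, adjusted p = 0.00447). The step from day 3 to day 10 was a fall of 8.52-fold (-3.09 ± 0.34 SE, adjusted p = 1.82e-07), and 9 of 12939 genes fell further. From day 10 to day 28 it regained 0.96 ± 0.31 SE (adjusted p = 0.0223), a call that was lost without day 10 replicate 3 (adjusted p = 0.0965), day 28 replicate 3 (adjusted p = 0.0507) or day 28 replicate 4 (0.73, adjusted p = 0.0942).

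Nupr1, a small nuclear stress protein that acts downstream of ATF4, moved late. Its levels were 8.93, 8.88, 8.55, 9.60 and 9.50 in the controls, 8.65, 8.56, 8.97 and 8.22 at day 2, 8.68, 9.71 and 9.03 at day 3, 10.63, 10.43 and 10.40 at day 10 and 9.31, 10.05, 10.15 and 9.79 at day 28. The 3 day 10 arrays were above all others, and 3 of 4 day 28 arrays were above all controls. Nupr1 rose 2.63-fold at day 10 (1.40 ± 0.24 SE, adjusted p = 3.7e-05) and was 0.04 from control at day 3. The rise from day 3 to day 10 was 1.35 ± 0.26 SE (adjusted p = 0.00028). At day 28 it stood at 0.74 ± 0.22 SE with adjusted p = 0.0812, and it was called there against controls 1 to 3 alone (1.04, adjusted p = 0.00368), without control 4 (0.86, adjusted p = 0.0269), without control 5 (0.84, adjusted p = 0.0358) or without day 28 replicate 1 (0.91, adjusted p = 0.0419).

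By their brightest probes, Ddit3 and Trib3 were not called against control in the main fit. Ddit3, which encodes CHOP, stood at 8.45, 8.67, 8.48, 9.27 and 9.26 in the controls, 8.77, 9.01, 9.55 and 8.96 at day 2, 9.65, 8.37 and 9.03 at day 3, 8.43, 8.22 and 8.44 at day 10 and 9.28, 9.43, 9.56 and 9.21 at day 28. All 3 day 10 arrays lay below the lowest control, yet the change of -0.46 ± 0.23 SE gave adjusted p = 0.126. Over all settings this change ran from -0.90 to -0.17, and it was called in 2 of 19 alternatives. A second, dimmer Ddit3 probe read -0.57 at day 10 and was called (adjusted p = 0.011). From day 10 to day 28 Ddit3 rose by 1.01 ± 0.24 SE (adjusted p = 0.00199), a call held under all 18 alternatives. At day 28 the value against control was 0.54 (adjusted p = 0.196), and 0.84 with controls 1 to 3 alone (adjusted p = 0.0135). Trib3, a pseudokinase that feeds back on ATF4 and CHOP, lay at 6.91 in the controls and between 6.96 and 7.17 afterwards, with no call.

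Asns, which makes asparagine from aspartate and glutamine, read 7.96, 7.85, 7.54, 8.26 and 8.11 in the controls, 7.77, 7.82, 8.16 and 7.47 at day 2, 7.90, 10.15 and 9.09 at day 3, 9.84, 9.72 and 9.29 at day 10 and 7.91, 8.36, 8.12 and 7.93 at day 28. The day 10 arrays cleared all controls, whereas the 3 day 3 arrays ran from a control level to the highest value of the series. The rise was 3.19-fold at day 10 (1.67 ± 0.29 SE, adjusted p = 5.77e-05) and 2.15-fold at day 3 (1.10 ± 0.29 SE, adjusted p = 0.00554). Without day 3 replicate 2 the day 3 change was 0.55 with adjusted p = 0.116, and against controls 4 and 5 alone it was 0.86 with adjusted p = 0.107. A second Asns probe gave 1.05 and 1.34 at the same times, both called, and the dimmest of the 3 probes gave 0.31 and 0.40, of which the second was called.

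Psat1, the aminotransferase in the middle of serine synthesis, had the largest rise of any member at day 10. Its levels were 7.51, 7.59, 7.41, 7.71 and 7.51 in the controls, 7.82, 7.80, 7.79 and 8.09 at day 2, 8.05, 9.02 and 8.32 at day 3, 10.77, 10.51 and 9.90 at day 10 and 7.84, 7.74, 7.50 and 7.72 at day 28. Every day 2, day 3 and day 10 array lay above every control, in rising order of the group means, and 3 of the 4 day 28 arrays were also just above the highest control. Psat1 was 1.89-fold higher at day 3 (0.92 ± 0.18 SE, adjusted p = 0.000393) and 7.2-fold higher at day 10 (2.85 ± 0.18 SE, adjusted p = 4.41e-11), and the day 2 value of 0.33 ± 0.17 SE did not pass (adjusted p = 0.298). From day 3 to day 10 it rose by 1.93 ± 0.20 SE (adjusted p = 1.15e-07), and from day 10 to day 28 it fell by 2.70 ± 0.19 SE (adjusted p = 4.02e-10), more than all but 32 of 12939 genes.

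The first enzyme of the same route, Phgdh, changed much less. Its levels were 6.51, 6.40, 6.43, 6.56 and 6.82 in the controls, 6.36, 6.44, 6.50 and 6.57 at day 2, 6.63, 6.89 and 6.57 at day 3, 6.89, 6.89 and 6.99 at day 10 and 6.62, 6.81, 6.52 and 6.48 at day 28, all near the median probe. The day 10 arrays were just above the highest control, a change of 0.38 ± 0.12 SE (adjusted p = 0.0167) that was lost without day 10 replicate 3 (0.35, adjusted p = 0.0676) and against controls 4 and 5 alone (0.23, adjusted p = 0.301). Psph, the last enzyme of the route, was not tested.

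Among the one-carbon enzymes of the mitochondrion, 2 members went opposite ways. Mthfd2, which oxidises methylene tetrahydrofolate, read 6.91, 7.00, 6.85, 6.83 and 6.72 in the controls, 6.97, 6.73, 7.29 and 6.92 at day 2, 6.90, 8.12 and 7.32 at day 3, 8.42, 8.20 and 7.57 at day 10 and 6.98, 7.29, 7.37 and 7.03 at day 28. All day 10 arrays were above all controls. It rose 2.29-fold at day 10 (1.20 ± 0.21 SE, adjusted p = 4.65e-05). At day 3 the change of 0.58 ± 0.21 SE was called (adjusted p = 0.0355) but rested on replicate 2, since it was 0.25 without that array (adjusted p = 0.426), and it was also lost without day 3 replicate 3 or control 3, 4 or 5 (adjusted p from 0.0543 to 0.0668). The rise from day 3 to day 10 (0.61 ± 0.23 SE, adjusted p = 0.0442) was lost without day 3 replicate 1 or 3 or day 10 replicate 1 or 2, with changes from 0.34 to 0.55.

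Shmt2, which splits serine into glycine and a one-carbon unit, stood at 8.14, 8.09, 8.10 and 7.92 in controls 1 to 4, with control 5 between the lowest 2 of these, 8.25, 7.82, 7.77 and 7.62 at day 2, 7.84, 8.22 and 7.82 at day 3, 7.34, 7.27 and 7.64 at day 10 and 7.79, 7.91, 7.74 and 7.85 at day 28. The day 10 arrays fell below every control. The brightest probe fell by 0.63 ± 0.14 SE at day 10 (adjusted p = 0.000643), while the second probe read 0.04 (adjusted p = 0.871), so the 2 probes disagreed. Aldh18a1, which starts proline synthesis from glutamate, read 7.96, 8.14, 7.77, 7.78 and 7.92 in the controls, 7.88, 8.21, 8.04 and 7.68 at day 2, 8.27, 9.12 and 8.53 at day 3, 8.73, 8.67 and 8.24 at day 10 and 7.97, 8.01, 7.67 and 7.81 at day 28. Both day 3 and day 10 lay above all controls. Its rise was 0.73 ± 0.17 SE at day 3 (adjusted p = 0.00166) and 0.63 ± 0.17 SE at day 10 (adjusted p = 0.00401).

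Within groups, the arrays ranked alike in several of these enzymes. At day 3, replicate 2 was the highest and replicate 1 the lowest array for Asns, Psat1, Mthfd2 and Aldh18a1, and at day 10 replicate 3 was the lowest for the same 4 genes. At day 3 the neutrophil, macrophage, dividing-cell, fibroblast and endothelial lists had the same order. The cardiomyocyte list had the reverse order there (13.72, 13.59 and 13.68). The neutrophil, macrophage and dividing-cell lists also had the same lowest array at day 10. The fibroblast list (10.64, 10.92 and 10.76) and the endothelial list (9.33, 9.12 and 9.36) did not. Replicates 1, 2 and 3 of day 3 averaged 7.04, 9.03 and 8.12 over 6 neutrophil markers and 6.93, 7.32 and 7.11 over 6 markers of dividing cells, and those of day 10 averaged 9.74, 9.57 and 9.11 and 9.48, 8.94 and 8.35. The part of these cells in the enzyme levels was not tested. The order was not particular to these enzymes and lists. Principal component 1 over all tested probes also had it at day 3 (4.24, 40.23 and 16.56). At day 10 that component was likewise lowest in replicate 3 (72.7, 63.43 and 54.34). Other members, among them Atf4, Slc7a5, Chac1 and Nars, had the day 3 order, while Aars, Sars and Slc3a2 were among those that did not.

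**Figure D2:**
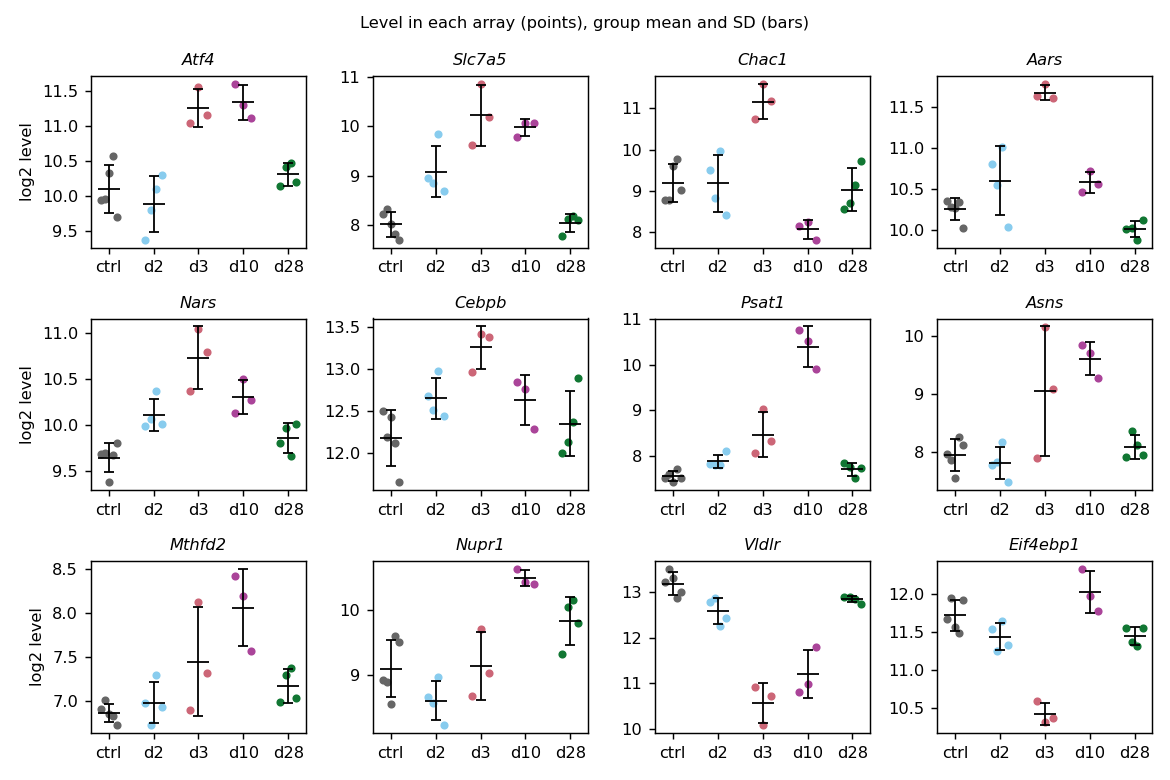
Log2 level of 12 members in each of the 19 arrays (points), grouped as control and the 4 times in order, with the group mean and SD as bars; each panel has its own vertical axis. Slc7a5, Atf4 and Psat1 stood above the controls at days 3 and 10, Chac1 and Aars peaked at day 3, and Vldlr was lower at both times.

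Of the transporters, Slc7a5 rose earliest. It encodes LAT1, the large neutral amino acid carrier. Its levels were 8.21, 8.31, 8.01, 7.81 and 7.70 in the controls, 8.96, 8.86, 9.84 and 8.68 at day 2, 9.63, 10.87 and 10.18 at day 3, 9.79, 10.08 and 10.07 at day 10 and 7.78, 8.13, 8.17 and 8.10 at day 28. Every array of days 2, 3 and 10 exceeded every control, and the day 28 arrays were back inside the control range. The increase was 2.11-fold at day 2 (1.07 ± 0.21 SE, adjusted p = 0.00256), 4.65-fold at day 3 (2.22 ± 0.23 SE, adjusted p = 8.27e-08) and 3.91-fold at day 10 (1.97 ± 0.23 SE, adjusted p = 2.91e-07). At day 2, 48 of 12939 genes rose more. These 3 calls held under every alternative setting, and from day 10 to day 28 Slc7a5 fell by 1.93 ± 0.24 SE (adjusted p = 1.2e-06).

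Slc3a2, the heavy chain that carries LAT1 to the membrane, rose for a shorter time. It read 6.49, 6.48, 6.40, 6.77 and 6.50 in the controls, 6.65, 7.00, 6.89 and 6.88 at day 2, 7.76, 7.33 and 7.47 at day 3, 6.43, 7.14 and 6.48 at day 10 and 6.51, 6.21, 6.67 and 6.63 at day 28. The day 3 arrays all lay above the controls and 2 of the 3 day 10 arrays lay among them. It rose by 0.99 ± 0.16 SE at day 3 (adjusted p = 2.85e-05) and fell by 0.83 ± 0.18 SE from day 3 to day 10 (adjusted p = 0.00061). At day 10 the change against control was 0.16 (95% interval -0.17 to 0.48). Whether the heavy and light chain differed in their course was not tested.

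Slc38a2, the glutamine and neutral amino acid carrier SNAT2, was among the brighter members and its probes disagreed. The brightest probe read 11.67, 11.69, 11.84, 10.86 and 10.72 in the controls, 11.51, 11.54, 11.40 and 11.70 at day 2, 11.17, 11.18 and 11.49 at day 3, 11.32, 12.14 and 11.91 at day 10 and 10.87, 10.90, 10.99 and 11.38 at day 28. Controls 4 and 5 were the lowest arrays of the series, and no time was called against control. A second bright probe was higher at day 3 (1.04 ± 0.22 SE, adjusted p = 0.000762), where the first read -0.08. With controls 4 and 5 alone the first probe was called at day 2 (0.74, adjusted p = 0.0177) and day 10 (1.00, adjusted p = 0.000803), and with controls 1 to 3 alone it was called lower at day 28 (-0.70, adjusted p = 0.00926). Slc7a1, the cationic amino acid carrier, had changes from -0.14 to -0.01 and no call. Slc7a11, the cystine carrier, was under the filter.

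Among the other targets, Vldlr moved the opposite way to most members. It encodes the very low density lipoprotein receptor, which ATF4 raises in liver and which heart muscle uses to take up triglyceride. Its levels were 13.23, 13.51, 13.32, 12.88 and 13.00 in the controls, 12.79, 12.87, 12.25 and 12.44 at day 2, 10.92, 10.08 and 10.73 at day 3, 10.81, 10.99 and 11.80 at day 10 and 12.89, 12.89, 12.84 and 12.75 at day 28. The day 2 arrays were all below the lowest control, the day 3 and day 10 arrays were far below, and 2 of 4 day 28 arrays were still under it. Vldlr was 6.1-fold lower at day 3 (-2.61 ± 0.20 SE, adjusted p = 1.15e-09) and 3.96-fold lower at day 10 (-1.98 ± 0.20 SE, adjusted p = 4.01e-08). At day 3, 18 of 12939 genes fell further.

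All 5 Vldlr probes were called lower at both times, with changes from -2.62 to -0.48 at day 3 and from -2.35 to -0.55 at day 10. At day 2 the brightest probe missed the threshold (-0.60 ± 0.19 SE, adjusted p = 0.0585) and 3 of the other 4 probes passed it. A rise of 0.62 ± 0.23 SE from day 3 to day 10 was called (adjusted p = 0.0397) but was 0.38 without day 3 replicate 2 (adjusted p = 0.251) and 0.32 without day 10 replicate 3 (adjusted p = 0.317).

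Eif4ebp1, a repressor of cap-dependent translation that ATF4 induces in other tissues, fell and came back. It stood at 11.68, 11.95, 11.57, 11.49 and 11.92 in the controls, 11.54, 11.25, 11.65 and 11.33 at day 2, 10.60, 10.32 and 10.37 at day 3, 12.33, 11.98 and 11.78 at day 10 and 11.55, 11.37, 11.32 and 11.56 at day 28. The day 3 arrays lay below every other array. It fell by 1.29 ± 0.14 SE at day 3 (adjusted p = 1.87e-07) and rose by 1.60 ± 0.16 SE from day 3 to day 10 (adjusted p = 5.55e-08), ending at 0.31 against control (adjusted p = 0.102). Without day 10 replicate 3 that last value was 0.43 and was called (adjusted p = 0.0403). Fgf21, the secreted hormone of mitochondrial stress, was near the median probe in every group, from 6.53 at day 10 to 6.90 at day 3. Its day 3 change of 0.30 ± 0.15 SE was not called (adjusted p = 0.165), and against controls 1 to 3 alone it was 0.43 with adjusted p = 0.0471, as it was 0.40 without control 4 (adjusted p = 0.047). Gdf15, the other secreted factor on the list, had no probe.

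The tRNA synthetases charge each tRNA with its amino acid, and 10 of the 12 on the list were tested. None was called lower before day 10. At day 2, 1 was higher, at day 3, 4 were higher, and at day 10, 3 were higher and 2 lower, beside 3.93%, 15.1%, 18.2% and 19.2% of all genes for these calls. From day 3 to day 10, 5 of the 10 fell and 0 rose, against 16.6% and 16.3% of all genes. From day 10 to day 28, 3 fell, against 15.3% of all genes. The median change of the 10 was 0.28, 0.23, 0.14 and -0.09 at the 4 times.

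Aars, for alanine, changed most. It read 10.36, 10.28, 10.27, 10.35 and 10.03 in the controls, 10.81, 10.55, 11.02 and 10.03 at day 2, 11.64, 11.79 and 11.61 at day 3, 10.47, 10.72 and 10.56 at day 10 and 10.01, 10.02, 9.88 and 10.12 at day 28. The day 3 arrays stood together above all others, the day 10 arrays were just above the controls, and the day 2 arrays spread from the lowest control to above all controls. It rose 2.69-fold at day 3 (1.43 ± 0.16 SE, adjusted p = 1.76e-07) and fell by 1.10 ± 0.18 SE from day 3 to day 10 (adjusted p = 2.95e-05). The day 2 value of 0.35 was not called, and without day 2 replicate 4 it was 0.54 and was (adjusted p = 0.0112).

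Nars, for asparagine, was raised at 3 times. Its levels were 9.68, 9.69, 9.37, 9.66 and 9.80 in the controls, 9.98, 10.06, 10.36 and 10.01 at day 2, 10.36, 11.03 and 10.79 at day 3, 10.12, 10.49 and 10.27 at day 10 and 9.80, 9.96, 9.66 and 10.01 at day 28. All arrays of days 2, 3 and 10 lay above the highest control. The rise was 0.46 ± 0.14 SE at day 2 (adjusted p = 0.0408), 1.09 ± 0.15 SE at day 3 (adjusted p = 3.91e-06) and 0.65 ± 0.15 SE at day 10 (adjusted p = 0.000963). The day 2 call was lost without day 2 replicate 2, 3 or 4 or control 1, 2, 3 or 4, with adjusted p from 0.0543 to 0.159, and the fall from day 3 to day 10 (-0.43 ± 0.17 SE, adjusted p = 0.0491) was lost without day 3 replicate 2 or 3 or day 10 replicate 1 or 3, with changes from -0.42 to -0.28.

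Sars, for serine, read 7.95, 8.27, 7.99, 8.20 and 8.20 in the controls, 8.34, 8.54, 8.76 and 8.07 at day 2, 8.93, 8.83 and 8.79 at day 3, 8.31, 8.29 and 8.31 at day 10 and 8.31, 8.19, 8.17 and 7.91 at day 28. The day 3 arrays were 8.79 to 8.93 and above all controls, and the day 10 arrays were just above the highest control. It rose by 0.73 ± 0.14 SE at day 3 (adjusted p = 0.00022), and its day 10 value was 0.18 (adjusted p = 0.353). A second, dimmer probe was higher at days 2, 3 and 10, by 0.97, 0.96 and 1.13, all called, so the probes disagreed on how long Sars stayed raised.

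Gars, for glycine, stood at 12.37, 12.53, 12.45, 12.23 and 12.29 in the controls, 12.59, 12.57, 12.86 and 12.50 at day 2, 12.46, 12.97 and 12.90 at day 3, 13.07, 12.91 and 12.75 at day 10 and 12.15, 12.30, 12.25 and 12.00 at day 28. The day 10 arrays cleared the controls and the day 3 arrays did so in 2 of 3. It rose by 0.54 ± 0.13 SE at day 10 (adjusted p = 0.00229) and by 0.40 ± 0.13 SE at day 3 (adjusted p = 0.0254), and fell by 0.74 ± 0.14 SE from day 10 to day 28 (adjusted p = 0.0002). The day 3 call was lost without day 3 replicate 2 (0.30, adjusted p = 0.166), day 3 replicate 3 (0.34, adjusted p = 0.122) or control 4 (0.36, adjusted p = 0.0552), and with controls 1 to 3 alone.

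Eprs, which serves glutamate and proline, read 9.35, 9.35, 9.20, 9.13 and 9.37 in the controls, 9.38, 9.48, 9.49 and 10.00 at day 2, 9.84, 9.15 and 9.43 at day 3, 9.63, 9.85 and 9.66 at day 10 and 9.30, 9.00, 9.43 and 9.43 at day 28. The day 10 arrays were above all controls by a small margin. Its day 10 change of 0.43 ± 0.16 SE (adjusted p = 0.0317) was lost without any 1 of the 3 day 10 arrays or without control 3 or 4, with adjusted p from 0.051 to 0.139. The other Eprs probe read 0.25 (adjusted p = 0.407).

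Mars and Iars, for methionine and isoleucine, were the synthetases called lower. Mars read 10.23, 9.97, 9.83, 9.90 and 9.62 in the controls, 9.94, 10.03, 10.16 and 10.32 at day 2, 9.88, 10.09 and 9.95 at day 3, 9.25, 9.33 and 9.26 at day 10 and 9.51, 9.56, 9.51 and 9.35 at day 28. All arrays of days 10 and 28 lay under the lowest control. Mars fell by 0.63 ± 0.13 SE at day 10 (adjusted p = 0.000321) and stood at -0.43 at day 28 (adjusted p = 0.0614), a value called without control 5 (-0.50, adjusted p = 0.0179). Its second probe read -0.23 at day 10 and was not called.

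Iars read 10.31, 10.27, 10.17, 9.89 and 9.65 in the controls, 10.62, 10.36, 10.34 and 10.21 at day 2, 10.00, 10.15 and 10.12 at day 3, 9.76, 9.63 and 9.68 at day 10 and 9.55, 9.79, 9.74 and 9.55 at day 28. The day 10 and day 28 arrays overlapped controls 4 and 5 and lay below controls 1 to 3. Its day 10 change of -0.37 ± 0.14 SE (adjusted p = 0.0434) was lost without control 1, 2 or 3 or any 1 of the day 10 arrays (adjusted p from 0.0672 to 0.133) and was -0.08 against controls 4 and 5 alone (adjusted p = 0.776). At day 28 it was -0.40 (adjusted p = 0.111), and -0.51 without control 5 (adjusted p = 0.0198). Lars, Tars and Wars, for leucine, threonine and tryptophan, were not called against control at any time, with changes from -0.24 to 0.26. Wars fell by 0.47 ± 0.14 SE from day 3 to day 10 (adjusted p = 0.0112), and by 0.35 without day 3 replicate 2, which was not called (adjusted p = 0.0781). Over all settings this change ran from -0.55 to -0.02, with adjusted p up to 0.916 in limma, and 15 of 17 alternatives called it. Cars and Yars were not tested.

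Synthetases outside the list were counted beside these. Of 10 further cytosolic synthetase and scaffold genes tested, 3 were higher at day 3 and 6 at day 10, with 0 lower, and 6 fell from day 10 to day 28. The shares of all genes for these calls were 15.1%, 18.2% and 15.3%. Rars, for arginine, rose by 1.13 ± 0.13 SE at day 10 (adjusted p = 1.88e-07), Eef1e1, a scaffold protein of the synthetase complex, by 1.70 ± 0.18 SE (adjusted p = 5.25e-08) and Farsb, for phenylalanine, by 0.87 ± 0.13 SE (adjusted p = 5.82e-06). Vars, for valine, rose by 0.60 ± 0.13 SE at day 3 (adjusted p = 0.00104). The day 3 count of this list ran from 1 to 6 over the alternatives.

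Of 13 mitochondrial synthetases tested, 1 was higher and 3 lower at day 3, and 2 were higher and 5 lower at day 10. Of all genes, 15.1% were higher and 14.8% lower at day 3, and 18.2% and 19.2% at day 10. Fars2 fell by 1.02 ± 0.11 SE and 1.19 ± 0.11 SE at these times (adjusted p = 1.53e-07 and adjusted p = 9.94e-09), and Vars2 and Lars2 fell by 1.04 and 1.05 at day 10. Ears2, for glutamate, fell by 0.71 ± 0.14 SE at day 3 and rose by 1.53 ± 0.14 SE at day 10 (adjusted p = 4.47e-09). Whether the 3 classes of synthetase differ from each other was not tested.

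**Figure D3:**
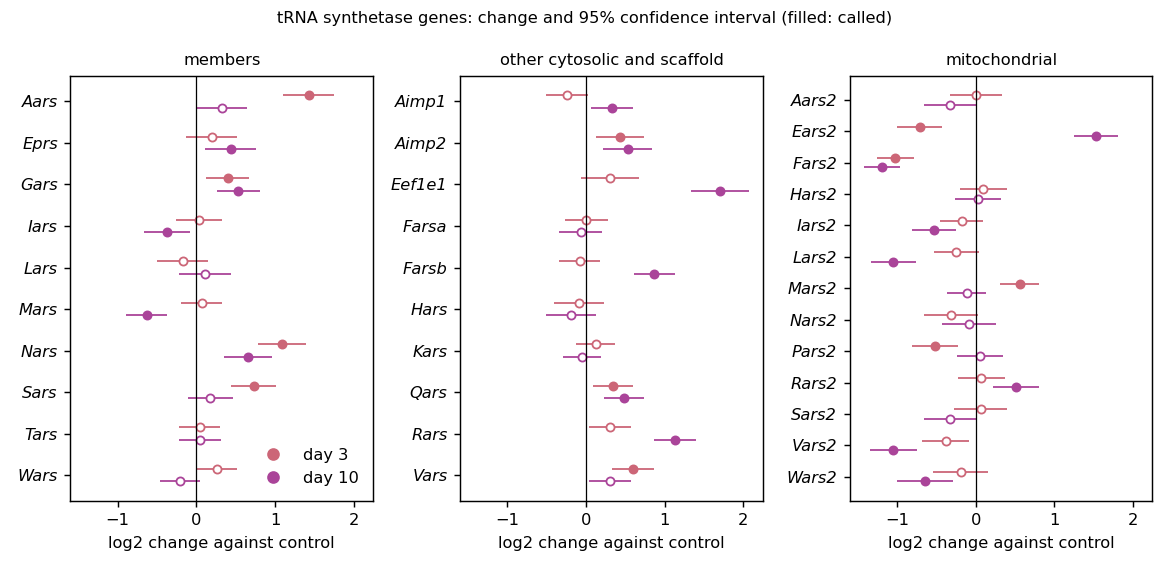
Log2 change against control at day 3 and day 10, with 95% confidence intervals, for 10 member tRNA synthetases, 10 other cytosolic synthetase and scaffold genes and 13 mitochondrial synthetases; filled points have an adjusted p under 0.05 (limma). Aars, Nars and Sars lay highest among the members at day 3. At day 10, 6 of the 10 other cytosolic genes and 2 of the 13 mitochondrial ones were raised, against 18.2% of all genes.

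Other genes of the pathway were read from lists of which the members are no part. Of 7 genes that control eIF2 phosphorylation, 4 were higher and 1 lower at day 3, against 15.1% and 14.8% of all genes. Ppp1r15a, the stress-induced subunit that dephosphorylates eIF2, rose by 2.51 ± 0.29 SE at day 3 (adjusted p = 3.71e-07), 1.61 ± 0.29 SE at day 10 (adjusted p = 8.92e-05) and 1.67 ± 0.27 SE at day 28 (adjusted p = 0.00107). Impact, an inhibitor of the kinase GCN2, rose by 1.06 ± 0.17 SE at day 3 (adjusted p = 4.18e-05) and was lower at day 10 (-0.53 ± 0.17 SE, adjusted p = 0.0187), a call that 15 of 19 alternatives kept. Nck1, an adaptor that brings a phosphatase to eIF2, fell by 0.79 ± 0.15 SE at day 3 (adjusted p = 0.000186), and Ppp1r15b, the constitutive partner of Ppp1r15a, rose by 0.77 ± 0.19 SE (adjusted p = 0.00295).

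Of 20 further ATF4 targets, 6 were higher and 4 lower at day 3, and 3 were higher and 12 lower at day 10, against 15.1% and 14.8% of all genes at day 3 and 18.2% and 19.2% at day 10. Atf3, a stress-induced factor downstream of ATF4, rose by 3.95 ± 0.39 SE at day 3 (adjusted p = 3.16e-08), and its day 10 value of 0.99 (adjusted p = 0.049) was called in only 5 of 19 alternatives. It was also called at day 28 (1.66 ± 0.36 SE, adjusted p = 0.0156), in 17 of 20 alternatives. Gpt2, which makes alanine, rose by 1.25 ± 0.17 SE at day 3 (adjusted p = 2.7e-06), and Sesn2, a leucine sensor, by 1.22 ± 0.16 SE (adjusted p = 2.8e-06). Herpud1, Map1lc3b and Gadd45a, with roles in protein quality control, autophagy and growth arrest, were at -1.84, -1.51 and -1.45 at day 10, all called lower. At day 3 Gadd45a had been called higher, with changes from 1.00 to 1.52 over all settings. Gpt2 was called lower at day 10, in 17 of 19 alternatives, with changes from -0.66 to -0.34 over all settings. At the same time Slc38a7 and other targets were also lower. Slc1a4, a carrier of alanine and serine, rose by 1.04 ± 0.14 SE at day 10 (adjusted p = 1.66e-06).

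Among 9 further serine, glycine and folate enzymes, Tyms, which makes thymidylate for DNA synthesis, rose by 2.62 ± 0.19 SE at day 10 (adjusted p = 2.27e-10) and Dld, a subunit of the glycine cleavage and pyruvate dehydrogenase complexes, fell by 1.44 ± 0.18 SE (adjusted p = 7.64e-07). Gldc rose by 0.61 ± 0.18 SE (adjusted p = 0.0105), and the other 6 were not called at day 10. In all, 2 of the 9 were higher and 1 lower at day 10, against 18.2% and 19.2% of all genes. Over the alternatives 15 of 19 called Gldc. These lists were chosen with results of these arrays known and are no independent evidence.

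Markers of macrophages, neutrophils, dividing cells and fibroblasts were higher at day 10 and endothelial markers lower, at the time when Psat1, Asns, Mthfd2 and Nupr1 had their highest group means. Beside the counts that follow, 18.2% of all genes were called higher and 19.2% lower at day 10. Of 11 macrophage markers, 10 were higher, and the list averaged 11.62, 11.41 and 11.09 in the day 10 arrays against 8.81, 8.57, 8.56, 9.52 and 9.59 in the controls. Lgals3 rose by 4.59 ± 0.32 SE (adjusted p = 1.37e-10). All 6 neutrophil and all 6 proliferation markers were higher, with Top2a up by 2.52 ± 0.19 SE (adjusted p = 3.73e-10) from a control level at the median probe, and 4 of 7 fibroblast markers were higher, with Col1a1 up by 1.97 ± 0.24 SE (adjusted p = 4.58e-07). Of 6 endothelial markers, 3 were lower and 0 higher, with Tie1 at -1.08 ± 0.16 SE (adjusted p = 6.34e-06). Of 11 cardiomyocyte markers, 6 were lower and 2 higher, with Myh6 at -1.37 ± 0.16 SE (adjusted p = 1.82e-07). The part of these cells in the day 10 levels of Psat1, Asns, Mthfd2, Nupr1 and Atf4 was not tested.

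At day 3, the time with the most members called higher, fewer macrophage, neutrophil, dividing-cell, fibroblast and endothelial markers were called than at day 10. Beside the counts that follow, 15.1% of all genes were called higher and 14.8% lower at day 3. Of 11 cardiomyocyte markers, 3 were higher and 4 lower. Their changes ran from -3.50 ± 0.31 SE (Pln, adjusted p = 6.51e-09) to 1.45, with a median of -0.15. Macrophage markers were called higher in 2 of 11, led by Lgals3 (3.39 ± 0.32 SE, adjusted p = 1.53e-08), neutrophil markers in 0 of 6, proliferation markers in 1 of 6, fibroblast markers were higher in 0 and lower in 1 of 7, and 0 of 6 endothelial markers were called. Neutrophil means were 7.04, 9.03 and 8.12 in the 3 arrays, against 7.84, 7.31, 7.55, 7.20 and 6.83 in the controls. A list of 5 skeletal muscle genes averaged 11.36, 11.36 and 11.44 at day 3 and 9.51, 9.94, 9.60, 9.66 and 9.84 in the controls. In that list the fast troponin genes Tnni2 and Tnnt3 rose by 3.32 ± 0.23 SE and 3.62 ± 0.26 SE, while Myh1, a fast myosin of such fibres, was at -0.05 and not called.

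**Figure D4:**
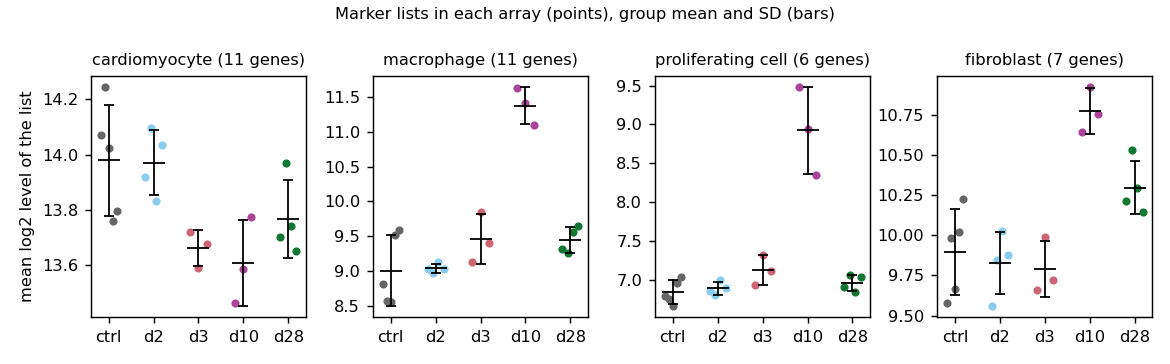
Mean log2 level of 4 marker lists (cardiomyocyte, macrophage, proliferating cell and fibroblast) in each of the 19 arrays (points), with the group mean and SD as bars; each panel has its own vertical axis. The macrophage and proliferation lists were highest in the 3 day 10 arrays, and controls 4 and 5 (9.52 and 9.59) lay above controls 1 to 3 (8.56 to 8.81) in the macrophage list.

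At day 28 no member differed from control by the test, with changes from -0.43 (Mars) to 0.74 (Nupr1). The 95% intervals show what could have been missed: -0.19 to 0.50 for Psat1, -0.16 to 0.58 for Atf4, -0.40 to 0.48 for Slc7a5, -0.73 to 0.05 for Vldlr and -0.73 to 0.41 for Chac1. Against controls 1 to 3 alone, 5 members were called: Nupr1 (1.04) and Ddit3 (0.84) higher, and Slc38a2 (-0.70), Iars (-0.60) and Mars (-0.53) lower, with adjusted p from 0.00302 to 0.0135. Against controls 4 and 5 alone, 0 were.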

How the data were processed

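Left-ventricle RNA of 19 samples was hybridised to Illumina bead arrays. The values used were the deposited intensity table, on a linear scale. Its 19 columns hold identical sorted values (median 191.479), as quantile normalization by the authors leaves them; the program and any background subtraction are not given in the sources used here. Another table, with 38 columns whose names match no label, was not used here. The files used give no detection calls and no depth, so precision is limited by the number of arrays. In limma 3.58.1 (R 4.3.3) the intensities were corrected by normexp with an offset of 50, taken to log2 and not normalized again. Probes under the 25th percentile of mean intensity were removed (25697 to 19273). 1 mean per group was fitted over all arrays, with 7 contrasts, eBayes and Benjamini-Hochberg adjustment over all probes. The script was tested on simulated data. Every member called against control at any time is named with its arrays. From each related list, genes with a low adjusted p were chosen, up to 4 for day 3 and up to 4 for day 10. Some of these, and a few others, are also given at another time. The members and lists were chosen with earlier results of these data known. Gene names come from the platform annotation, promoters from RefSeq.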

Additional observations from a re-analysis of the deposited data

Results flagged for a closer look

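In 4 of the 93 sets of arrays examined, 1 array stood apart from the rest of its group, and chance gives about 1 in 20. Psat1 read 8.09 in day 2 replicate 4, against 7.79 to 7.82 in the other day 2 arrays. Slc3a2 read 6.77 in control replicate 4, against 6.40 to 6.50 in the other controls. Aars read 10.03 in control replicate 5, against 10.27 to 10.36. Lars read 10.56 in day 2 replicate 4, where the others were at 10.20.

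The change against control turned from higher at day 3 to lower at day 10 in 2 members, with the difference itself tested. Atf5 went from 0.66 to -0.97, a difference of -1.63, and Chac1 from 1.97 to -1.12, a difference of -3.09 (limma, adjusted over all probes).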

How the results depend on the processing

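Of 4040 member-by-setting results, 3658 kept direction and call, 147 lost the call and 77 gained it. The sign changed in the other 158, from 24 members, of which 0 were called in either setting. The 3 calls at day 2 became 1 with an offset of 16, 5 with the mean of a gene's probes and 5 against controls 4 and 5 alone, and ran from 1 to 4 with single arrays left out. The 0 calls at day 28 became 1 without background correction, 1 with the filter at the 50th percentile, 4 with array weights and 5 against controls 1 to 3 alone, and ran from 0 to 3 with single arrays left out. The 13 calls between day 2 and day 3 ran from 7 to 14 with single arrays left out. With the replicate number as a block, the calls were 2, 14, 17 and 3 at the 4 times. Deviations from the group mean had a mean correlation of -0.001 over 33 pairs of same-numbered arrays, 3 of them over 0.1. For arrays of different number and group the mean was 0 over 110 pairs, 13 of them over 0.1. Such means cannot show whether some of the numbers mark a shared batch. The promoter match share was 40.6% with the longer motif and 53.1% with the shorter. Where no value shows it, the cause was not tested. Probes near the filter measure changes poorly.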
